A study of Sporobolus alterniflorus and Setaria viridis with 12 samples.

Results

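Of the 15218 genes measured in leaves of 2 grasses, 45 had lower transcript levels under salt in both species. They were chosen by their measured values. A gene was kept if every control library of both species reached 5 FPKM, if (mean + 1) under salt was at most 0.5 of (mean + 1) in controls in each species, and if the highest salt library lay below the lowest control library in each species. FPKM, fragments per kilobase of gene and per fixed number of fragments, is a level scaled by gene length and library size. Setaria viridis is a small C4 grass of non-saline ground, and Spartina alterniflora (Sporobolus alterniflorus in the labels) is a C4 cordgrass of salt marshes whose leaves excrete salt through glands. Plants of both species were grown indoors and moved to hydroponic culture, and mature leaves of control plants and of plants given NaCl were sampled, with 3 libraries per group and 12 in all. No genotype or accession of either grass is stated, and the cordgrass seed was collected from the wild.

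Salt lowers the water available to a leaf and lets sodium and chloride build up in it. Leaves of salt-sensitive plants respond by closing stomata, slowing growth and cutting photosynthesis, and many transcripts of growth and photosynthesis usually fall. Halophytes such as S. alterniflora limit ion build-up and generally keep these functions at salt levels that harm other grasses. The title of the series calls S. viridis the more vulnerable of the 2, and the 45 genes are those lowered in both. The table pairs 0 of its Setaria gene IDs with a gene name, so the members are given by ID, without roles, and the labelled tissue was not checked against marker genes. In bulk leaf RNA, fewer cells of a type and less RNA per cell cannot be told apart.

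In the treatment protocol S. viridis received 250 mM NaCl and S. alterniflora 50 mM, but the columns are headed 50 in the former species and 250 in the latter. Species are named here as in the column headings, and a swap of the headings would exchange them throughout. The sources used here do not state how cordgrass fragments came under Setaria IDs, and the read depth behind the FPKM values is unknown. Total FPKM was 622429 ± 8497 (SD, n = 3) in S. viridis controls and 525204 ± 16183 under salt, and 787772 ± 124772 in S. alterniflora controls and 720893 ± 17763 under salt. The labels do not tie libraries to plants, so p-values reflect only how far these libraries differ, which may be technical variation.

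The condition on control levels was met by 4270 genes. Of these, 1103 (25.8%) met the fold and separation conditions in S. viridis, 74 (1.73%) met them in S. alterniflora and 45 (1.05%) met them in both. The 45 genes were 4.08% of the S. viridis list and 60.8% of the much shorter S. alterniflora list. These counts are fixed by the rule and carry no test. The condition that cut deepest was the fold in S. alterniflora: 130 genes met every condition but that one. In that species the ratio was 0.496 for the member nearest to the limit and 0.501 for the nearest gene beyond it. The S. viridis fold alone excluded 11 genes, with 0.495 nearest inside and 0.52 nearest outside. The control minimum alone excluded 19 genes, with 5.01 FPKM nearest inside and 4.57 FPKM nearest outside. Overlap alone excluded 2 genes in S. viridis and 14 in S. alterniflora. The lowest control library was 1.12 times the highest salt library for the closest member in S. viridis, and 1.01 times for the closest in S. alterniflora.

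In S. viridis the 45 genes were left with a median of 23.4% of their control mean under salt, from 0.28% to 46.2%. In S. alterniflora they were left with a median of 38.2%, from 2.98% to 49.2%. On the log2(mean FPKM + 1) scale the median change was -1.99 in S. viridis, with a lower quartile of -2.90 and an upper quartile of -1.42. In S. alterniflora the median was -1.31, with quartiles of -1.67 and -1.10, against the limit of -1. The corresponding medians over all 4270 genes were -0.22 and 0.03. On that scale 22 members were at least 4-fold lower in S. viridis and 9 in S. alterniflora, and 11 and 1 were at least 8-fold lower. By the means themselves, with nothing added, 27 and 11 were at least 4-fold lower, and 16 and 4 at least 8-fold lower. These values selected the members and describe them without a test.

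**Figure D1:**
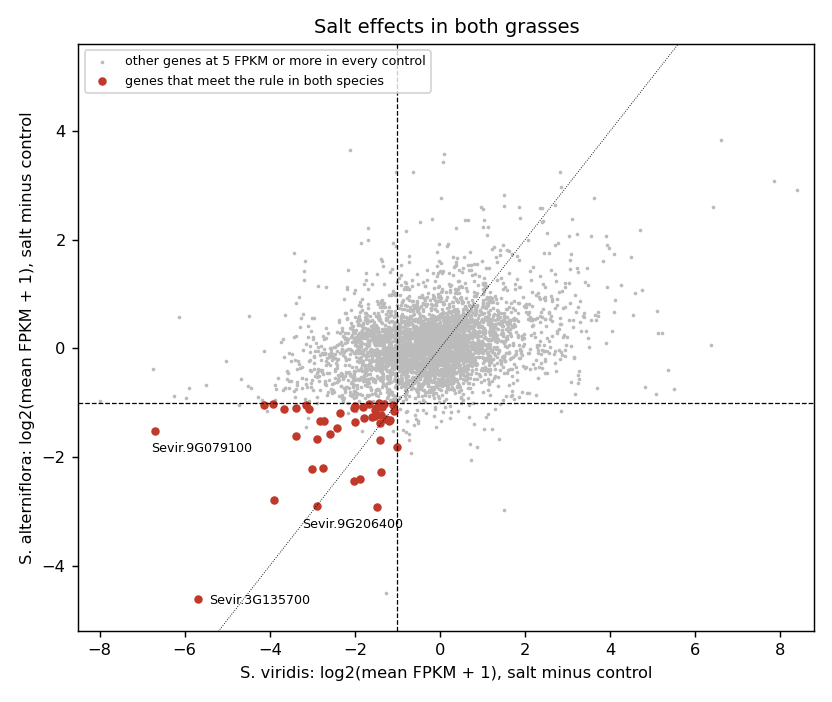
Change under salt in S. viridis (horizontal axis) against S. alterniflora (vertical axis), both as log2(mean FPKM + 1) in salt minus control libraries. Each point is 1 of the 4270 genes at 5 FPKM or more in every control library, the 45 selected genes are red, dashed lines mark the 2-fold limit of the rule and the dotted line marks equal change. The red points spread to -6.71 in S. viridis, whereas in S. alterniflora most lie just under -1.

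Ranked by the smaller of their 2 falls, Sevir.3G135700 and Sevir.9G206400 came first. Sevir.3G135700 stood at 76.6, 113 and 103 FPKM in the S. viridis control libraries A, B and C and at 0.09, 2.36 and 0.29 FPKM in the salt libraries. In S. alterniflora it stood at 82.0, 46.9 and 131 FPKM in controls and at 3.57, 3.33 and 0.85 FPKM under salt. The control means were 97.5 ± 18.8 FPKM and 86.6 ± 42.2 FPKM (SD, n = 3). Within each species salt and control libraries did not overlap, as the rule required. The lowest control was 32.5 times the highest salt library in S. viridis and 13.1 times in S. alterniflora. Its change on the log2(mean FPKM + 1) scale was -4.61 in S. alterniflora and -5.69 in S. viridis.

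Sevir.9G206400 changed by the same amount in both grasses, -2.90 in each. Its S. viridis libraries were at 92.3, 104 and 66.7 FPKM in controls and at 3.97, 18.3 and 10.5 FPKM under salt. Its S. alterniflora libraries were at 119, 61.2 and 97.2 FPKM in controls and at 13.8, 14.0 and 6.72 FPKM under salt. The level that was left, 12.4% of the control mean, was the same in both species. The lowest control was 3.65 times the highest salt library in S. viridis and 4.38 times in S. alterniflora.

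The most abundant members, singled out after their values were seen, were the 3 with control means of at least 1000 FPKM in both species. Sevir.5G172700 was at 5561 ± 566 FPKM (SD, n = 3) in S. viridis controls, from 4914 to 5963, and at 1355, 2621 and 1825 FPKM under salt. Its S. alterniflora controls held 7540, 5441 and 11365 FPKM, and its salt libraries 4421, 3196 and 3451 FPKM. It was left with 34.8% of the control mean in S. viridis and 45.5% in S. alterniflora.

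Sevir.9G559000 was at 3173, 4013 and 3993 FPKM in S. viridis controls and at 84.4, 166 and 482 FPKM under salt, 6.55% of the control mean. Its S. alterniflora controls held 2539, 3026 and 2110 FPKM and its salt libraries 1049, 1327 and 1398 FPKM, 49.2% of the control mean. The salt libraries of S. viridis all lay below those of S. alterniflora, whereas its controls all lay above. Sevir.2G353200 had 1997, 2280 and 2651 FPKM in S. viridis controls and 113, 336 and 324 FPKM under salt. In S. alterniflora it had 16870, 11035 and 25032 FPKM in controls and 10055, 8721 and 6791 FPKM under salt, where control library B and salt library A were only 1.10-fold apart.

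**Figure D2:**
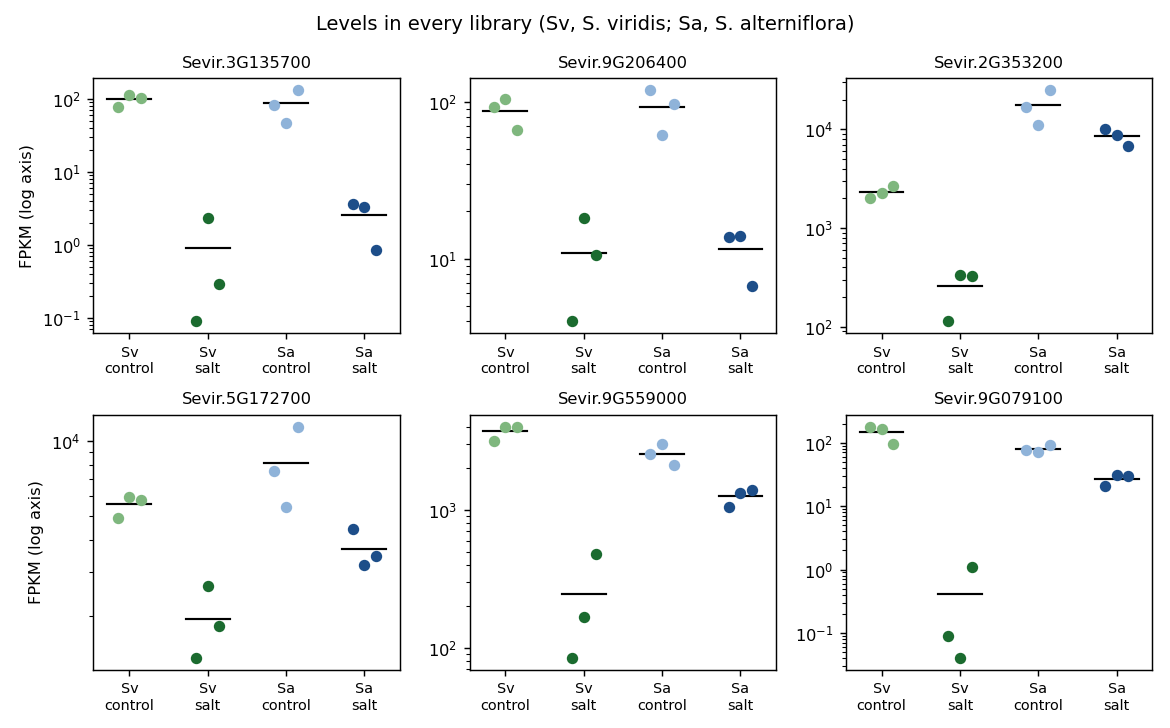
FPKM in every library for 6 members, on log axes that differ between panels; points are libraries A, B and C from left to right and black lines are group means. In every panel both salt groups lie under the control group of their species without overlap, as the rule required; Sv is S. viridis and Sa is S. alterniflora.

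Summed over all 45 genes, the members made up 2.21% ± 0.207 of total FPKM (SD, n = 3) in S. viridis controls and 0.534% ± 0.176 under salt. In S. alterniflora they made up 4.02% ± 0.605 in controls and 2.07% ± 0.218 under salt. The 3 abundant genes carried most of this, with 1.86% in S. viridis controls and 3.53% in S. alterniflora controls. The other 42 members made up 0.346% ± 0.0328 and 0.072% ± 0.0322 in S. viridis controls and salt libraries, and 0.492% ± 0.0389 and 0.202% ± 0.0115 in S. alterniflora. Without the abundant genes, then, the summed share under salt was still lower in S. viridis than in S. alterniflora. Across the 45 genes, control means ran from 6.4 to 5561 FPKM with a median of 27.1 in S. viridis, and from 5.51 to 17646 FPKM with a median of 39.3 in S. alterniflora. Control levels of the 2 species had a Pearson's r of 0.76 and a Spearman's rho of 0.51 over the 45 genes, against 0.67 and 0.53 over the 4270. The points share the same libraries, so these values are descriptions.

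The fall was larger in S. viridis for 34 of the 45 genes (75.6%), where the change in S. viridis was the lower one for 60.0% of the 4270 genes. The median difference, S. viridis change minus S. alterniflora change, was -0.54 on the log2 scale, with quartiles of -1.15 and -0.04, against -0.28 over the 4270 genes. The changes lay within 0.5 of each other for 18 members, and for 35.8% of the 4270 genes. The difference was widest for Sevir.9G079100, singled out for that reason. It was at 179, 167 and 93.9 FPKM in S. viridis controls and at 0.09, 0.04 and 1.1 FPKM under salt, but S. alterniflora controls held 75.9, 71.4 and 90.7 FPKM and its salt libraries 21.1, 30.7 and 29.5 FPKM. Its changes were -6.71 and -1.52. Over the 45 genes the changes in the 2 species had a Pearson's r of 0.34 and a Spearman's rho of 0.14, a description only. No test is given for these differences, since both changes were used to select the genes. Dose and species also differ together here and cannot be told apart.

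Within the S. viridis salt group, library A held the least of these transcripts and library C the most. The median level left was 9.93% of the control mean in A, 20.6% in B and 32.8% in C. Library A was the lowest of the 3 for 35 members (77.8%) and the highest for 0, and C was the highest for 30 (66.7%). The order was the same over all 4270 genes, with medians of 68.6%, 82.4% and 99.2%. There A was lowest for 53.0% and highest for 13.8%, and C was highest for 60.5%. The SD of the members in that group was a median of 66.1% of the mean, against 30.7% over the 4270 genes and 14.0% in the members' own controls. Among the 1058 genes that met the rule in S. viridis alone it was 53.1%. Library A was lowest for 57.2% of those genes and highest for 1.80%, and C was highest for 88.8%. Of 540 values of members, 1 was listed at 0, that of Sevir.7G189000 in S. viridis salt library A. Without salt library C the rule found 49 genes, all 45 members among them, without salt library B 47 with 44 members, and without salt library A 39 with 38 members.

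In S. alterniflora the salt libraries were closer, with medians of 38.0%, 30.05% and 37.8% of the control mean in A, B and C, against 102%, 95.6% and 104% over the 4270 genes. Control library C was the highest of the 3 for 23 members (51.1%), whereas it was the highest for 26.1% of the 4270 genes and the lowest for 54.4%. The control libraries set the control mean in the rule, so this share is not free of the selection and is a description only. The SD of the members was a median of 31.7% of the mean in those controls, against 21.9% over the 4270 genes, and 36.005% in the salt libraries, against 25.5%. Without control library C the rule found 65 genes, 35 of them members. Without control library A it found 55, with 41 members among them, and without control library B it found 72, with 39. Leaving out salt library A gave 96 genes with 42 members, leaving out B gave 55 with 36, and leaving out C gave 66 with 41. Which genes pass in S. alterniflora thus depended on single libraries more than in S. viridis, where leaving out any control library gave 45 or 46 genes with at least 44 members among them.

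**Figure D3:**
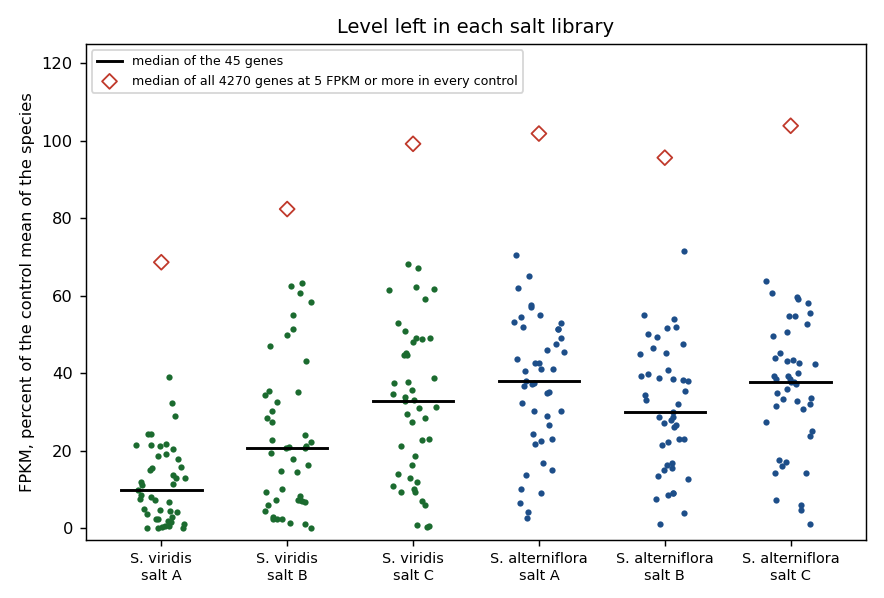
FPKM in each salt library as a percentage of the control mean of the species; dots are the 45 genes, black lines their medians and red diamonds the medians of the 4270 genes. In S. viridis the medians of the 45 genes are 9.93% in library A, 20.6% in B and 32.8% in C, the order that the 4270 genes also show, and in S. alterniflora they lie between 30.05% and 38.0%.

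**Figure D4:**
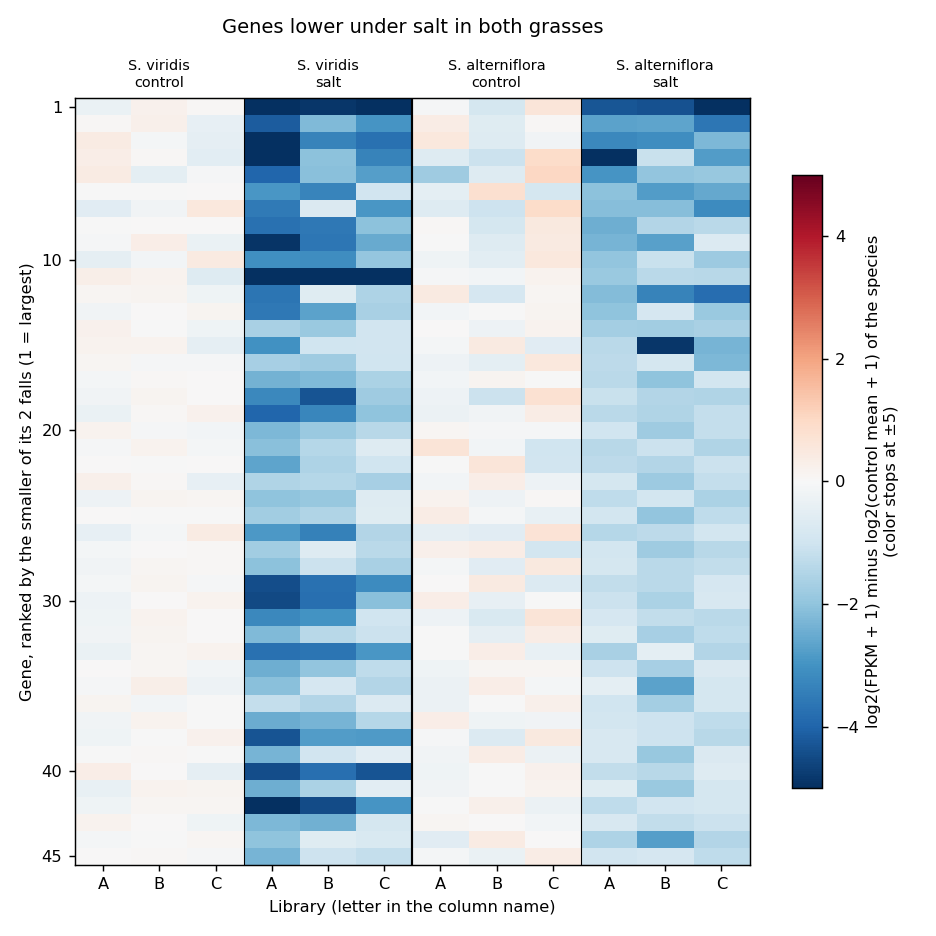
Level of each of the 45 genes (rows, ranked by the smaller of the 2 falls) in the 12 libraries (columns A to C of each group), as log2(FPKM + 1) minus log2(control mean + 1) of the same species. Blue is below the control mean and red above it; S. viridis salt libraries are the darkest, A most of all, and S. alterniflora control library C is above its group's mean for many of the upper rows.

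By limma with Benjamini-Hochberg adjustment over all tested genes, 45 of 45 members were called lower under salt in S. viridis, against a background of 27.1% of 11266 tested genes. In S. alterniflora 6 of 45 were called lower, against 0.194% of 11330 genes, and those 6 were called in both species. The rule used these contrasts, so the counts show only how selection and test overlap. With control library A of S. alterniflora left out, limma called 0 members, with 37 at an unadjusted p under 0.05, and 0 of all 11399 genes tested, with 1099. A single fit over all 12 libraries called 14 members lower, among 91 genes lower of 12529 tested.

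The rule did not compare the 2 species with each other, so their levels in controls were compared. The control libraries did enter the rule, through the demand for 5 FPKM, the fold and the separation from salt libraries. The p-values for members in this contrast are therefore not free of the selection and only describe them. How cordgrass fragments came under Setaria IDs is not stated. A species gap in FPKM, here and under salt, may thus not be a gap in expression. By limma on log2(FPKM + 1), adjusted over 12134 tested genes, 28 of the 45 genes differed between the controls. Of these, 9 of 45 were higher in S. viridis, against 39.5% of all genes tested, and 19 of 45 (42.2%) were lower, against 32.8%. Over the 4270 genes that met the same control minimum, 29.5% were higher and 32.4% lower. The median difference, S. viridis minus S. alterniflora, was -0.33 for the 45 genes, 0.16 for all tested genes and -0.06 for the 4270. Scaling the FPKM of each library to a common median moves this contrast by -0.45 and upper quartile scaling by -0.33. In limma, 8 members were higher and 20 lower with upper quartile scaling. The same counts came from median centring of log2(FPKM + 1), which is not the same as the median scaling.

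Called members ranged widely in that contrast. Sevir.2G184900 was highest on the S. viridis side, at 93.5, 102 and 101 FPKM in its controls against 5.7, 7.17 and 6.16 FPKM in those of S. alterniflora (3.77 ± 0.15, log2 difference ± SE, limma adjusted p = 1.96e-06). Sevir.2G447900 followed at 85.3, 110 and 68.8 FPKM against 12.8, 8.12 and 18.3 FPKM (2.70 ± 0.31, limma adjusted p = 0.000205). Neither pair of groups overlapped. On the other side, Sevir.1G344100 was at 10.3, 14.2 and 15.1 FPKM in S. viridis against 509, 646 and 396 FPKM in S. alterniflora (-5.18 ± 0.24, limma adjusted p = 3.12e-06). Sevir.9G182200 was at 9.21, 11.6 and 16.9 FPKM against 84.1, 78.9 and 185 FPKM (-3.03 ± 0.37, limma adjusted p = 0.000292), again without overlap. Both therefore met the control minimum in S. viridis at low FPKM while standing higher under the same IDs in the cordgrass. The other 17 members did not pass, which does not show that their levels were equal.

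The difference between the species under salt is the control difference plus the difference of the 2 falls that selected the genes, so its values for the members are given as a description. By limma over 12445 genes, 1 of the 45 was called higher in S. viridis (2.22%, against 31.9% of all genes tested) and 18 lower (40.0%, against 29.9%). Over the 4270 genes 18.3% were higher and 32.2% lower. The median difference was -1.02 for the members, 0.02 for all tested genes and -0.33 for the 4270. Both scalings move this contrast by about -0.30. In limma, upper quartile scaling and median centring gave 1 higher with 23 or 24 lower. The gene called higher was Sevir.2G184900, at 18.5, 20.3 and 32.6 FPKM in S. viridis salt libraries against 1.91, 0.8 and 2.86 FPKM in S. alterniflora (3.14 ± 0.39). Its FPKM in S. viridis thus stood above that in the cordgrass with and without salt.

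The widest differences in the other direction were those of Sevir.1G344100 and Sevir.2G353200. Sevir.1G344100 was at 0.07, 0.13 and 0.91 FPKM in S. viridis salt libraries against 167, 370 and 186 FPKM in S. alterniflora (-7.42 ± 0.41). Sevir.2G353200, with the values given above, differed by -5.18 ± 0.51, having already been lower in S. viridis controls. For both genes the cordgrass under salt stood above S. viridis controls in FPKM: the lowest S. alterniflora salt library was at 167 FPKM for Sevir.1G344100 and at 6791 FPKM for Sevir.2G353200, and the highest S. viridis controls were at 15.1 and 2651 FPKM.

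Sevir.9G559000 differed by -2.71 ± 0.61 under salt and by 0.55 ± 0.22 in controls (limma adjusted p = 0.0569).

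Across both contrasts, 16 members (35.6%) were called in the same direction with and without salt, against 32.6% of the 4270 genes. Of these members, 15 (33.3% of the 45) were lower in S. viridis and 1 (2.22%) higher, against 20.2% and 12.4% of the 4270 genes. Of the 9 called higher in S. viridis controls, 1 (11.1%) was also called higher under salt, 6 (66.7%) were not called under salt and 2 (22.2%) were called lower. Over the 4270 genes 1261 were called higher in controls. Under salt 42% of them were called higher, 51.2% were not called and 6.74% were called lower. The 2 members called lower were Sevir.9G079100 and Sevir.9G445400. Sevir.9G079100 had a difference of 0.83 ± 0.27 (limma adjusted p = 0.0285) in controls and of -4.38 ± 0.37 under salt. Sevir.9G445400 was at 234, 276 and 235 FPKM in S. viridis controls and at 10.6, 18.0 and 27.3 FPKM under salt, against 120, 163 and 73.2 FPKM and 50.7, 45.8 and 66.2 FPKM in S. alterniflora. Its differences were 1.13 ± 0.30 (limma adjusted p = 0.0113) and -1.57 ± 0.39. By means alone, 9 of 45 members were higher in S. viridis controls and lower in S. viridis under salt, and 0 turned the other way, against 16.2% and 10.8% of the 4270 genes. These turns are made of the 2 falls that selected the genes, so they are described and not tested.

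**Figure D5:**
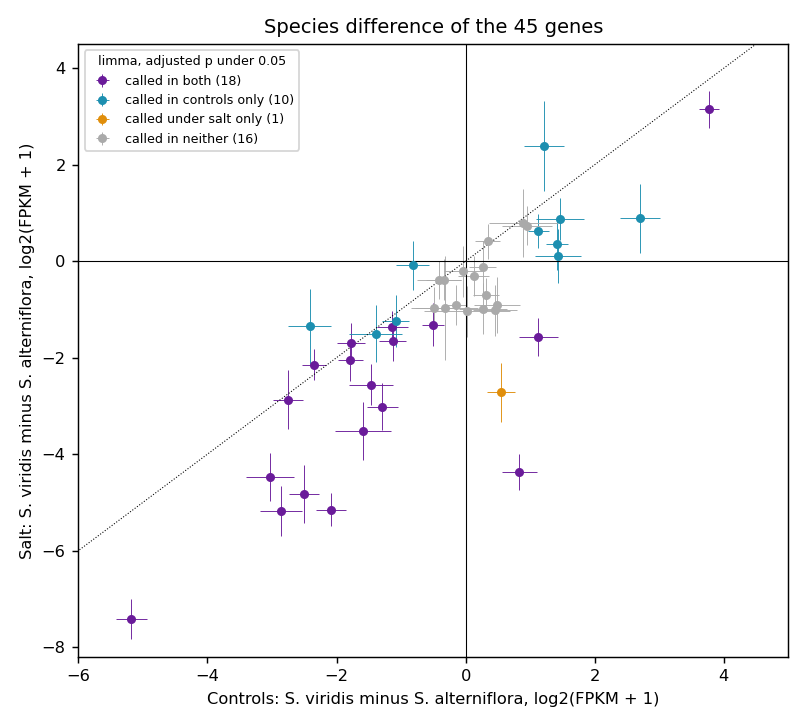
Difference between species for the 45 genes, S. viridis minus S. alterniflora on the log2(FPKM + 1) scale, in controls (horizontal axis) and under salt (vertical axis), with bars of 1 SE and color by limma call. Points under the dotted line had the larger fall under salt in S. viridis, and the 2 purple points right of 0 and below 0 are Sevir.9G079100 and Sevir.9G445400.

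Genes that met the rule in one grass but not in the other give the closest comparison. In S. viridis alone 1058 genes met it. Their median change in S. alterniflora was -0.09, and in that species every salt library lay under every control for 130 of them (12.3%) and above every control for 53 (5.01%). Their median S. viridis change was -1.62, against -1.99 for the 45 genes, and 28.7% were at least 4-fold lower there on the same scale, against 48.9% of the 45. In S. alterniflora alone 29 genes met the rule, with a median change of -1.33 there and of -0.41 in S. viridis. In S. viridis 16 of those 29 were lower by their means and 13 higher, and for 6 of them every salt library lay above every control. The difference between the lists was not tested, because the same values define them.

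Position was not part of the rule. In IDs of this form the digit before G gives the chromosome, and by it the 45 genes lay on 8 of the 9 chromosomes. Chromosomes 2, 3, 5, 7 and 9 held 7 each, chromosome 1 held 4, and chromosomes 4 and 6 held 3 each. Chromosome 8 held 0, among 163 genes that met the control minimum. As a share of such genes, members were most frequent on chromosome 7, with 1.85% of 378, and otherwise between 0.718% and 1.35% where there were any. Coordinates and sequences are not given here, because no genome build is stated in the sources used.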

How the data were processed

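Values are FPKM as deposited by the authors, in 1 table of 15218 Setaria gene IDs and 12 libraries of mature leaf RNA (paired-end Illumina reads), per the labels and file headers. The submitters' processing notes list RSEM and edgeR but no version or role, and aligner, reference and filters are not stated. Columns carry letters, not the replicate numbers of the titles, so they were assigned to groups only, and 0 columns were unused. Count models were not run on FPKM. The rule was applied to the deposited values. All-gene comparisons used limma 3.58.1 in R 4.3.3 on log2(FPKM + 1) (pseudocount 1), with a trend, two-sided, Benjamini-Hochberg threshold 0.05, a minimum mean of 1 FPKM and the 6 libraries compared. All 45 members passed that filter in each fit. Only the comparison of controls is given with p-values for members, since the other 3 hold the falls that the rule used. The control libraries also entered the fold and separation conditions, so these p-values are not free of the selection. This scale understates changes of low genes. The fits were checked on artificial data. Members, tests and lists were chosen with earlier results of these data known. IDs were named as the 2 largest in smaller fall and at most 2 called members per direction in each species comparison; others were named after their values were seen. The planned gene lists and motifs were not used, since 0 IDs are paired with a name. Descriptions and figures used Python 3.11.15, pandas 2.3.3 and matplotlib 3.10.9. Alternatives were other rule limits, pseudocounts, filters and scalings, limma without trend, 1 fit over all libraries, a letter block and leaving out each library.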

Additional observations from a re-analysis of the deposited data

How the results depend on the processing

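The rule gave 45 genes, but 28 with a control minimum of 10 FPKM, 9 with a ratio of at most 0.33, 148 with at most 0.67, 84 after upper quartile scaling (44 of the 45 among them) and 74 after median scaling (43 among them). Leaving out 1 library gave 39 to 96 genes. The scalings shift the S. alterniflora salt contrast by -0.14 and -0.13 on the log2 scale, which is toward lower ratios. They shift the S. viridis salt contrast by -0.12 and 0.02, and they act on the control minimum too. Which of these brought in the added genes was not tested. Members called lower in S. alterniflora numbered 6, but 3 with no filter, 14 in 1 fit over all 12 libraries and 0 to 5 with 1 library left out. These settings differ in the libraries used, the genes tested or, for 14, a spread pooled over both species. Why the counts moved was not tested. Leaving out libraries gave 36 to 43 called members in S. viridis, 24 to 32 in the comparison of controls and 18 to 25 under salt. In the comparison of controls, 5 members changed sign under upper quartile scaling and 6 under median centring, and 0 of the called members changed direction under any alternative. Of the named genes, Sevir.9G206400 missed the threshold in S. alterniflora without control library A, control library C or salt library C, and Sevir.3G135700 without control library A. Deviations of same-lettered libraries had correlations of -0.103 to 0.06, and those of libraries with different letters -0.159 to 0.144. No strong shared deviation by letter was seen, but this cannot settle whether the letters pair libraries, which the labels do not state. With the letter as a replicate block 45, 4, 29 and 21 members were called in the S. viridis salt, S. alterniflora salt, control and salt comparisons, against 45, 6, 28 and 19 without. Depth behind the values is unknown, so levels under 1 FPKM are of unknown precision.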
